A study of Mus musculus with 4 samples.

Results

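The genes of cholesterol and fatty acid synthesis were examined in the lungs of CDF1 mice, in 4 groups that crossed high-intensity treadmill exercise (E) with tumor (T). Members were chosen by gene symbol: 34 genes, all of which were found among the 23282 rows measured, made up of 3 regulators, 18 cholesterol enzymes and 13 fatty acid enzymes. The choice covers most but not every enzymatic step of either pathway. The groups were E(-)T(-) for resting and E(+)T(-) for exercised mice that carried no tumor, and E(-)T(+) for resting and E(+)T(+) for exercised mice that carried one. Wherever 4 values are given in a row, they follow this order. The tumor came from CT26, a mouse colorectal carcinoma line injected into the tail vein, so that a tumor-bearing lung can hold carcinoma cells beside its own. All mice were male, and no genetic change is given for them. The labels give postnatal day 28 as the age. The mice were bought at about that age and killed at the end of the experiment, so they were older at sampling. Their exact age then is not given. There were 10 mice per group, but each group is represented by 1 library, and what it was made from is not given for lung. The muscle libraries each came from a single mouse picked to represent its group, and lung is described as analysed similarly, which points to 1 mouse per library. No difference given here therefore has a replicate check, and no p-value is given.

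Cholesterol is built from acetyl-CoA through mevalonate, isoprenoid diphosphates, squalene and lanosterol. Its enzymes are switched on together by SREBP transcription factors, which are held in the endoplasmic reticulum by Scap and Insig proteins when sterols are plentiful and released when sterols run short. The product of Srebf2 acts mainly on cholesterol genes, and the main product of Srebf1 on fatty acid genes. Dividing cells need cholesterol for new membranes, whereas in the lung the alveolar type 2 cell is known for making fatty acids, which it packs into surfactant phospholipids.

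In the resting tumor-bearing lung the pathways stood on opposite sides. Of the 18 cholesterol enzymes 17 were higher in E(-)T(+) than in E(-)T(-), with a median log2 difference of 0.94, and Cyp51 and Lss were 3.61-fold and 3.60-fold higher. Of the 13 fatty acid enzymes 10 were lower, with a median of -0.71, and Acacb was 6.14-fold and Acss2 3.50-fold lower. In exercised mice with tumor, 14 of the 18 and 10 of the 13 lay between these levels, where 47.0% of all genes did, but only 7 and 4 did so when reads were scaled by library totals alone (37.3% of all genes).

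The promoters of 5 members are printed to show what the genes of each pathway carry near their start: Hmgcs1, the synthase at the head of the mevalonate pathway, Cyp51 and Mvd as cholesterol genes that were over 2-fold higher in E(-)T(+), and Acss2 and Elovl5 as fatty acid genes that were lower there. Each is the 180 bases before the annotated start, 5′ to 3′ on the strand of the gene, from RefSeq on GRCm38.p6, the assembly that mm10 also denotes. Capitals mark the 4 motifs searched on both strands, CCAAT (the NF-Y box), GGGCGG (the Sp1 box), TCACNCCAC (9 letters of the sterol response element) and CACGTG (the E-box). On the opposite strand CCAAT reads ATTGG and GGGCGG reads CCGCCC.
Hmgcs1: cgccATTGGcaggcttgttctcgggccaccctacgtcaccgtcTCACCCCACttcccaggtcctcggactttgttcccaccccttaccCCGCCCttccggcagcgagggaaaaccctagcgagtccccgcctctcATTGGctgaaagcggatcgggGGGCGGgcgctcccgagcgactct
Cyp51: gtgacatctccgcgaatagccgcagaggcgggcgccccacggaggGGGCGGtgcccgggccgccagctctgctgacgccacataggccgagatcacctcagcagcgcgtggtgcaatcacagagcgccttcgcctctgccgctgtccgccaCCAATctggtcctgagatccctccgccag
Mvd: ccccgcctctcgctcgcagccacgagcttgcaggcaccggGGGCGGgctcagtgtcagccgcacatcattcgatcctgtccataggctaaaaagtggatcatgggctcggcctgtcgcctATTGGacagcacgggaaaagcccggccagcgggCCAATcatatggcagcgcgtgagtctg
Acss2: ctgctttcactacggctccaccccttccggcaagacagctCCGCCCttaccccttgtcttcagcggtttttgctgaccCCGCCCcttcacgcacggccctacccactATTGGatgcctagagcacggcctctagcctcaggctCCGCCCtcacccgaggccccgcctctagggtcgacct
Elovl5: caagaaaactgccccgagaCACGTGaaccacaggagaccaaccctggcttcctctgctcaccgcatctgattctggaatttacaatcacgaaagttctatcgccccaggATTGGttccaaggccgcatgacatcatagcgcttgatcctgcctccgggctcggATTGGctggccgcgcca

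These stretches lie at chr13:119690171-119690350 (plus strand) for Hmgcs1, chr5:4104698-4104877 (minus) for Cyp51, chr8:122443423-122443602 (minus) for Mvd, chr2:155517863-155518042 (plus) for Acss2 and chr9:77917185-77917364 (plus) for Elovl5. In Hmgcs1 the TCACNCCAC match begins 137 bases before the start, between a CCAAT match at 176 and a GGGCGG match at 92. RefSeq windows of 250 bases before to 50 after a start were matched for 28 of the 34 members. CCAAT was found for 24 of these, 14 of 15 cholesterol enzymes and 7 of 10 fatty acid enzymes, against 41.1% of the 27025 gene symbols with a window. For GGGCGG the numbers were 22 of 28, 14 of 15 and 5 of 10, against 38.2%. CACGTG was present for 5 of 28 members (8.09% of all symbols) and TCACNCCAC for Hmgcs1 alone of the 28 (1.44%). No window was matched for Sqle, Fdft1, Fdps, Scd1, Scd2 and Fads1, so these were not searched. The symbols counted as all were not limited by gene type, while every member encodes a protein. A gene with several annotated starts was counted once if any window held the motif, the motifs do not overlap each other in letters, and a match is a description of these letters and not of binding.

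Libraries held between 9354531 and 13368015 reads assigned to genes, so that 3 reads, taken as the smallest level the depth can show, corresponded to 0.224 to 0.321 CPM (reads scaled to a common total). Levels are given as normalized read counts, which are the authors' values with the log2(count + 1) scale undone. Because reads come from the 3′ end of transcripts, length has little weight in them. Exact 95% intervals of the read ratio, on the log2 scale, cover counting error only, since PCR copies are not independent molecules. Hemoglobin genes took 14.3%, 14.2%, 1.43% and 31.4% of all reads. Scaling by library totals alone in place of the authors' scaling moves the log2 median of all genes to -0.59 when E(+)T(+) is compared with E(-)T(+) and to -0.41 when it is compared with E(+)T(-). Of genes at 500 or more normalized counts in the resting tumor-bearing library, 9 had no read in its tumor-free counterpart. The exercised tumor-free library nonetheless held reads of all 9, at 0.64% to 2.18% of the tumor-bearing level (median 1.47%).

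**Figure D1:**
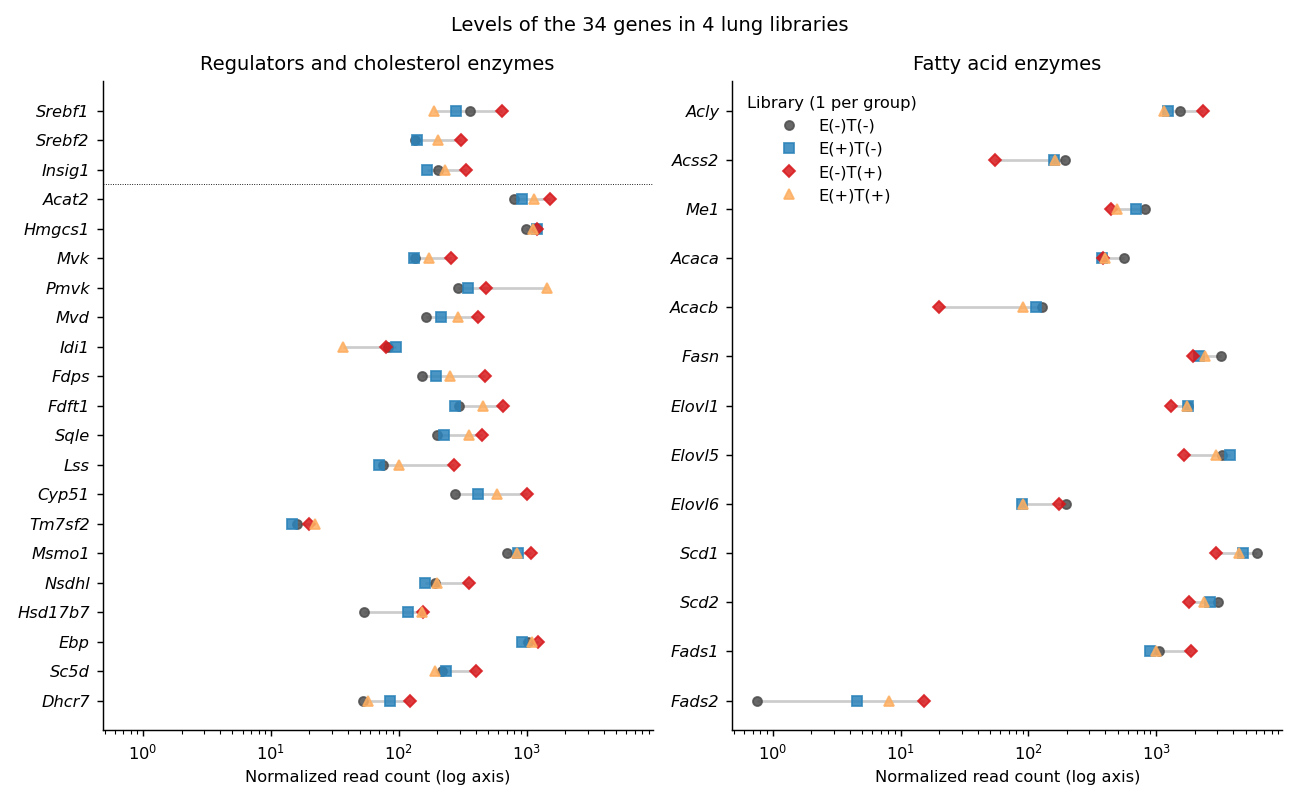
Normalized read count (log axis) of each of the 34 genes in the 4 lung libraries, 1 point per library, with the regulators above the dotted line. The red diamonds of E(-)T(+) lie at the right end for 14 of 18 cholesterol enzymes and at the left end for 8 of 13 fatty acid enzymes (16 of 18 and 3 of 13 under library totals alone).

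The place of the extremes separated the pathways. E(-)T(+) was the highest library for 14 of 18 cholesterol enzymes and for all 3 regulators, and the lowest for none of the 18. For the fatty acid enzymes E(-)T(+) was the lowest library in 8 of 13 and E(-)T(-) the highest in 8 of 13, where E(-)T(-) was the highest for 22.5% of all genes. Among the 15164 genes with a mean normalized count of at least 4, all 34 members included, E(-)T(+) was the highest library for 35.5% and the lowest for 36.9%. Under library totals alone E(-)T(+) was the highest for 16 of 18 cholesterol enzymes (44.4% of all genes) but the lowest for only 3 of 13 fatty acid enzymes (23.1%, near the 26.2% of all genes), with E(+)T(+) the lowest for 9 of 13 (45.5% of all genes). With totals that leave out hemoglobin, these counts for E(-)T(+) were 14 of 18 and 8 of 13. Summed over the 18 cholesterol enzymes, the normalized counts were 5700, 6497, 10177 and 8518. Over the 13 fatty acid enzymes they were 21919, 18691, 14916 and 17280. In CPM, which uses library totals alone, the cholesterol sums were 515, 553, 993 and 545 and the fatty acid sums 1981, 1592, 1455 and 1106, so that the lowest fatty acid sum was then in E(+)T(+). On either scale the fatty acid sum was 3.85, 2.88, 1.47 and 2.03 times the cholesterol sum, highest in healthy resting mice and lowest in resting mice with tumor.

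The first comparison set the resting libraries with and without tumor against each other. It gives the tumor effect without exercise. Of the 34 members 13 (38.2%) were past 2-fold, of which 10 were higher with tumor and 3 lower, where 46.2% of all 15164 genes were past it, so that the members were not more often past 2-fold than other genes. Direction divided the members. Among the cholesterol enzymes 8 of 18 were past 2-fold higher and 0 lower, against 20.6% higher and 25.7% lower of all genes, and 17 of 18 (94.4%) were on the higher side, where 48.9% of all genes were. The median of the 18 was 0.94 and that of all genes -0.03. For 16 of the 18 the counting interval lay above 0, and for none below it. Interval counts were not made for all genes, here or below, so they have no share to stand beside. In bulk tissue such as this, fewer cells of a type and less RNA per cell cannot be told apart.

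The regulators were all higher in E(-)T(+). Srebf2, which encodes the SREBP of the cholesterol genes, stood at 134, 139, 309 and 203 normalized counts. The resting tumor-bearing library was thus the highest, by 1.20 on the log2 scale over E(-)T(-) (interval 0.92 to 1.49). Srebf1 stood at 363.8, 281.1, 636.4 and 189.5, and Insig1, itself a target of SREBP that holds Scap in the endoplasmic reticulum, at 201, 167, 334 and 229. Srebf1 was higher in E(-)T(+) than in E(-)T(-) by 0.81 (0.63 to 0.99) and Insig1 by 0.73 (0.48 to 0.98), neither past 2-fold. E(+)T(+) was the lowest of the 4 libraries for Srebf1 but not for Srebf2 or Insig1.

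The mevalonate part of the pathway turns acetyl-CoA into farnesyl diphosphate. Fdps, the synthase that makes farnesyl diphosphate, stood at 153, 197, 473 and 250 normalized counts, a log2 difference of 1.62 between the resting libraries (1.38 to 1.89). Mvd, the decarboxylase that yields isopentenyl diphosphate, stood at 162, 213, 414 and 290, a difference of 1.35 (1.10 to 1.61). These were the 2 of 7 mevalonate genes past 2-fold (28.6%), a share near the 20.6% of all genes past 2-fold higher. Acat2, the acetyl-CoA acetyltransferase of the cytosol, and Mvk, the mevalonate kinase, came close, at 0.94 (0.82 to 1.06) and 0.93 (0.64 to 1.24). Hmgcs1, whose promoter holds the TCACNCCAC match, differed by 0.29 (0.17 to 0.41), on 1155 and 1096 reads. Idi1, the isomerase of isopentenyl diphosphate, was the 1 cholesterol enzyme not higher, at 82.5 and 80.0 normalized counts, a difference of -0.04 with an interval of -0.50 to 0.41.

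The sterol part leads from farnesyl diphosphate to cholesterol, and all 11 of its genes were higher in E(-)T(+), where 48.9% of all genes were, 6 of them past 2-fold, against 20.6% of all genes. Cyp51 (chr5:4080674-4104697), the demethylase of lanosterol, stood at 277, 418, 1003 and 592 normalized counts. The difference between the resting libraries was 1.85 (1.67 to 2.04). Cyp51 shares 166 bases of exon with Akap9 on the other strand, which had 2831, 2755, 1666 and 1529 reads, so that it differed the opposite way between the resting libraries but not between the tumor-bearing ones. Lss, Srebf1 and Me1 likewise share 150, 109 and 30 bases with antisense genes that had at most 25, 135 and 16 reads in any library. Lss (chr10:76531565-76557139), which closes the ring system of lanosterol, stood at 74.7, 69.8, 272 and 101, and also differed by 1.85 (1.51 to 2.23). Unlike Cyp51, Lss was about as low in the exercised as in the resting tumor-free library, and with tumor both genes were lower after exercise than at rest.

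Hsd17b7, a ketosteroid reductase of the pathway, stood at 53.4, 118, 153 and 151 normalized counts, so that the healthy resting library alone was low. Between the resting libraries it was 2.84-fold higher with tumor. Dhcr7, which makes the final reduction of the pathway in one of its branches, Sqle, the epoxidase of squalene, and Fdft1, the squalene synthase, differed by 1.21, 1.16 and 1.13. Fdft1 shares 774 bases of exon with Ctsb on the other strand. The strand used in counting was not stated, and the reads of Ctsb, 2911, 2167, 4847 and 3325, moved in step with the 349, 302, 593 and 387 of Fdft1, so that its difference is uncertain. Sc5d, Nsdhl and Msmo1, which act on later sterols, lay between 0.61 and 0.89. Ebp, the sterol isomerase, differed by 0.28 (0.16 to 0.40) on 1199 and 1130 reads. Tm7sf2, a sterol reductase, had 16 to 19 reads per library and shares exon sequence with Vps51, and its difference of 0.28 was within counting error (-0.73 to 1.30).

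**Figure D2:**
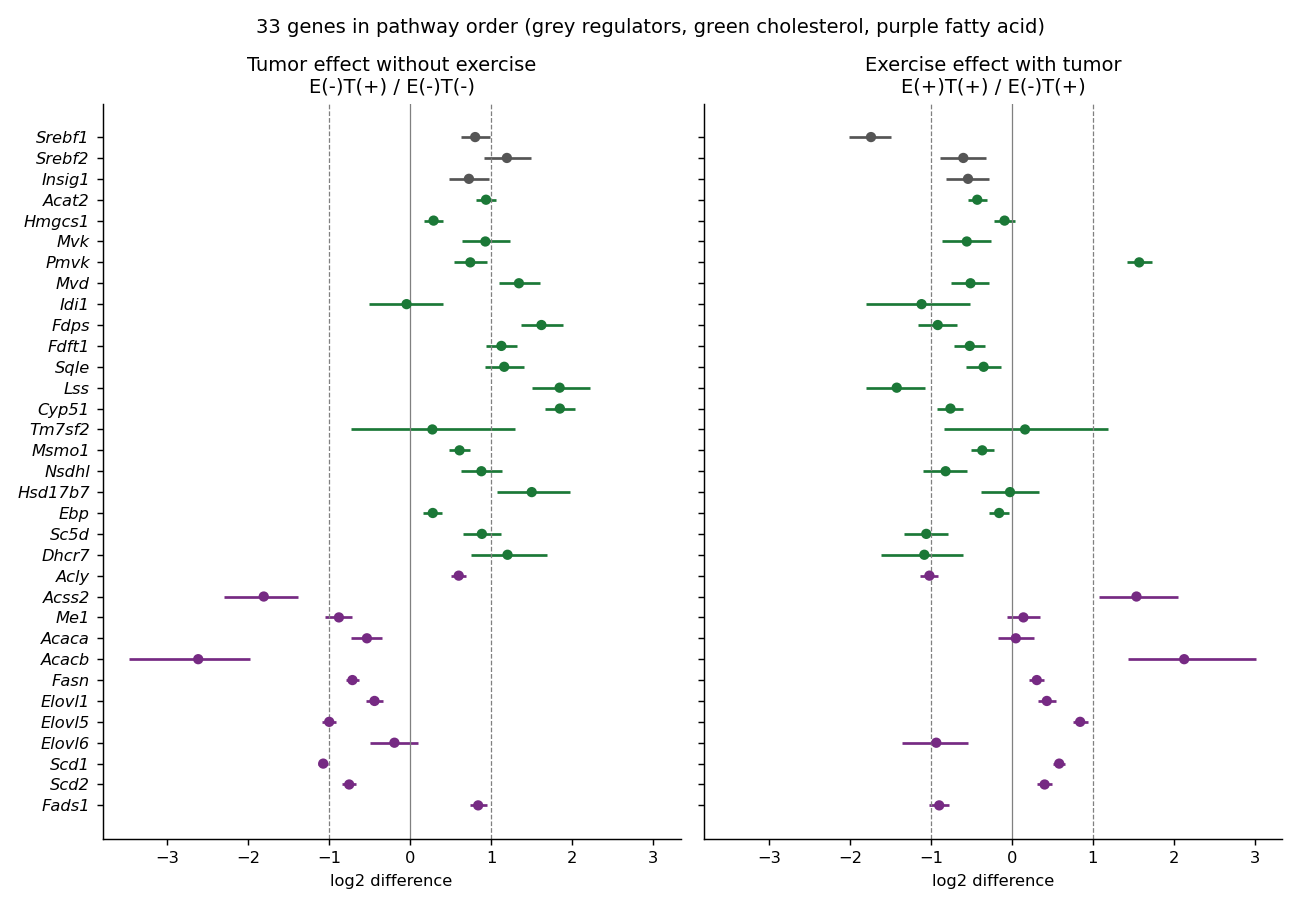
Log2 differences (points) of 33 genes in pathway order for the tumor effect without exercise (left) and the exercise effect with tumor (right), with exact 95% intervals of the read ratio for counting error (bars) and 2-fold limits (dashed); Fads2, with 1 to 14 reads, is left out for its wide interval. The panels share the E(-)T(+) library. On the left the cholesterol genes lie mostly between 0 and 1.85 and the fatty acid genes mostly below 0, down to -2.62.

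The fatty acid enzymes went the other way. In E(-)T(+) 3 of 13 were past 2-fold lower, near the 25.7% of all genes, and 1 was past 2-fold higher, against 20.6%. Their median was -0.71, 10 of 13 were on the lower side, where 7751 of the 15164 genes were, and the counting interval lay below 0 for 9 and above 0 for 3. The difference between the medians of the cholesterol and fatty acid enzymes was 1.65. It was 1.56 when Srebf2 and Insig1 were counted with the former and Srebf1 with the latter.

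Acacb (chr5:114146321-114250761), the acetyl-CoA carboxylase of the mitochondrial surface whose product holds back fatty acid oxidation, stood at 127, 115, 19.8 and 90.0 normalized counts. The resting tumor-bearing library alone was low, with a log2 difference of -2.62 (-3.48 to -1.97), on 149 and 18 reads. Acss2 (chr2:155518043-155562743), which makes acetyl-CoA from acetate, showed the same shape at 195, 157, 54.9 and 161, a difference of -1.81 (-2.30 to -1.38). Exons of Acss2 overlap those of Gss on the other strand, which had 119 and 169 reads in the resting libraries and so differed the opposite way. Scd1, the stearoyl-CoA desaturase and the highest member, stood at 6177, 4776, 2936 and 4401, a difference of -1.07 (-1.14 to -1.01), or -0.96 and so short of 2-fold under library totals alone. Elovl5, an elongase of polyunsaturated fatty acids, stood at 3289, 3773, 1645 and 2952 and lay just short of the 2-fold limit, with an interval of -1.09 to -0.91.

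Smaller differences had the same direction. Me1, the malic enzyme that supplies NADPH, was at -0.88 (-1.05 to -0.71), and Scd2, the close relative of Scd1, at -0.75 (-0.84 to -0.67). Fasn, the fatty acid synthase, stood at 3195, 2153, 1950 and 2413 normalized counts and differed by -0.71 (-0.79 to -0.63). Acaca, the carboxylase that feeds Fasn, and Elovl1, which extends saturated chains, were at -0.53 and -0.44. An exon of Elovl1 overlaps 53 bases of the cell division gene Cdc20 on the other strand, which had 74 reads in the healthy and 950 in the tumor-bearing of the resting libraries.

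The exceptions among the fatty acid enzymes were Acly, Fads1 and Fads2. Acly, which cleaves citrate into the acetyl-CoA used by both pathways, stood at 1536, 1226, 2332 and 1149 normalized counts and was higher in E(-)T(+) by 0.60 (0.51 to 0.69). Fads1, a desaturase of polyunsaturated fatty acids, stood at 1041, 894, 1867 and 1001 and was higher by 0.84 (0.74 to 0.95). Both were highest in the resting library with tumor and lower in the other three. Fads2, a desaturase on the same chromosome as Fads1, had only 1, 5, 14 and 7 reads. Its log2 difference of 3.21 in the resting libraries carries an interval of 1.46 to 9.58. Elovl6, which extends palmitate, was at -0.19, within counting error (-0.49 to 0.10).

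The exercised and resting tumor-free libraries gave the exercise effect without tumor. Past 2-fold were 3 of 34 members (8.82%), near the 9.98% of all genes. There were 2 higher members, against 5.28% of all genes, and 1 lower, against 4.70%. Higher were Hsd17b7, by 1.12 (0.69 to 1.59), and Fads2, by 1.66 on 1 and 5 reads, within counting error. Lower was Elovl6, which went from 198 to 89.1 normalized counts, a difference of -1.14 (-1.51 to -0.80). The medians stood on opposite sides of the all-gene median of 0.00, the cholesterol enzymes at 0.21 and the fatty acid enzymes at -0.24. They were 0.12 and -0.32 both under library totals alone and with totals that leave out hemoglobin, where the all-gene median was -0.08. Of all 15164 genes 7580 were higher in E(+)T(-) and 7489 lower. In the former group 12 of 18 were higher, 9 of them with an interval above 0, led after Hsd17b7 by Dhcr7 at 0.69 (0.22 to 1.18) and Cyp51 at 0.59 (0.39 to 0.80). In the latter group 10 of 13 were lower, 9 with an interval below 0, among them Fasn at -0.57 (-0.64 to -0.49) and Acaca at -0.57 (-0.75 to -0.39). All 6 genes of acetyl-CoA supply and chain building were lower in E(+)T(-). When 1.47% of the resting tumor-bearing level was taken out of the exercised tumor-free library, the medians were 0.18 and -0.26. Markers moved between these libraries too, but the same share was not taken out for them. It would weigh on genes far higher in E(-)T(+), such as the cell division genes. They summed to 1028 normalized counts in E(+)T(-) and 13487 in E(-)T(+). Of the 12 cell division genes 11 were higher in E(+)T(-), 5 of them past 2-fold, with a median of 0.95, and of 9 neutrophil genes 6 were past 2-fold higher, with a median of 1.61. Of 9 adipocyte genes 3 were past 2-fold lower, with a median of -0.82. The part of these cells in the members' differences was not tested.

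**Figure D3:**
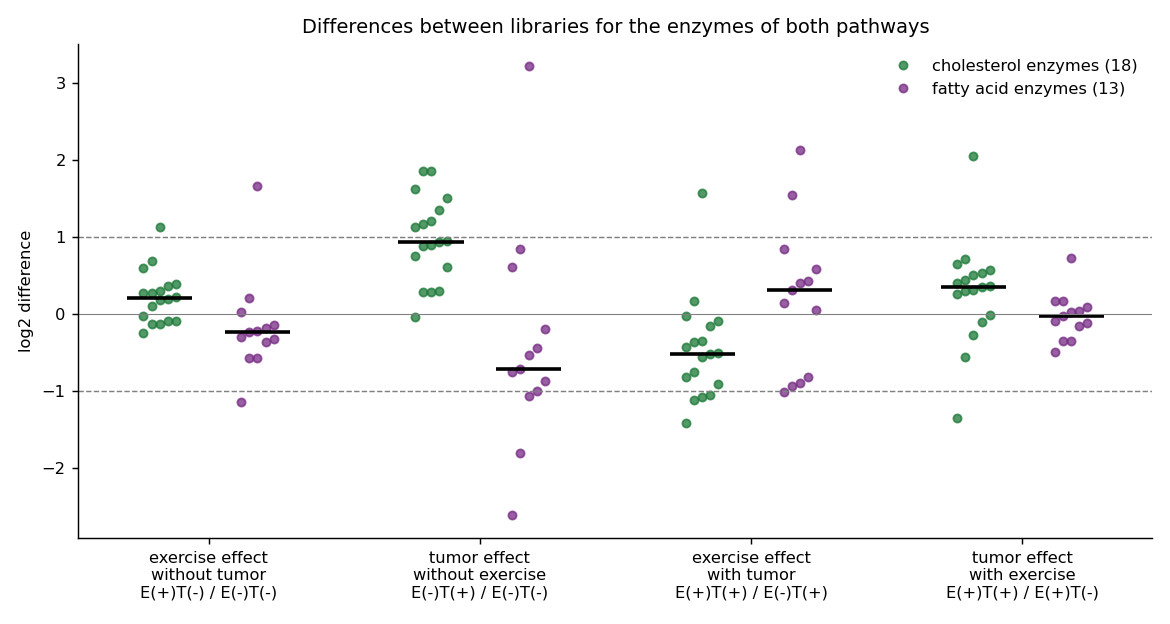
Log2 difference of each cholesterol enzyme (green, 18) and fatty acid enzyme (purple, 13) in the 4 comparisons, with the median of each group as a black bar and 2-fold limits dashed; each comparison is between 1 library and another. The medians are 0.21 and -0.24, 0.94 and -0.71, -0.52 and 0.31, and 0.35 and -0.03 from left to right; under library totals alone the third pair becomes -1.12 and -0.30 and the last cholesterol median -0.059.

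The exercised and resting tumor-bearing libraries gave the exercise effect with tumor. It shares the resting library with the tumor effect without exercise. Past 2-fold were 9 of 34 members (26.5%), 3 higher and 6 lower, against 42.0% of all genes. The cholesterol enzymes were lower in 16 of 18, where 7536 of all 15164 genes were, with a median of -0.52, and past 2-fold lower in 4, against 17.7% of all genes. Under library totals alone the median was -1.12, and 11 were past 2-fold lower, against 35.4% of all genes. The 4 were Lss at -1.42 (-1.81 to -1.08), Idi1 at -1.12 (-1.80 to -0.52), Dhcr7 at -1.08 (-1.61 to -0.60) and Sc5d at -1.06 (-1.34 to -0.79). Of the other cholesterol enzymes past 2-fold in the resting libraries, Fdps, Cyp51, Fdft1, Mvd and Sqle were lower, at -0.92, -0.76, -0.52, -0.51 and -0.35. Hsd17b7 was at -0.02, within counting error (-0.38 to 0.33). The regulators were lower as well, and Srebf1 was the furthest, at -1.74 (-2.01 to -1.50).

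Pmvk, the phosphomevalonate kinase, stood apart from its pathway. It held 288, 347, 483 and 1440 normalized counts, so that the exercised tumor-bearing library alone was high. The difference in tumor-bearing mice was 1.57 (1.42 to 1.74), on 441 and 1232 reads, and in exercised mice 2.05 (1.88 to 2.22). Under library totals alone these were 0.97, short of 2-fold, and 1.64. No exon of another gene in the files was annotated over Pmvk (chr3:89454541-89469014). The summed neutrophil markers were highest in the same library, with 9 genes at 4098, 12147, 11629 and 203436 normalized counts, although 1 of them, Ltf, was highest in E(-)T(+). The summed erythroid markers were also highest there, with 13 genes at 1276569, 1310622, 118938 and 3858171. Ly6g of the former list and Ahsp of the latter were not among the rows used here. The part of either in the Pmvk value was not tested.

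Of the fatty acid enzymes 9 of 13 were higher in E(+)T(+) than in E(-)T(+), where 50.3% of all genes were, with a median of 0.31, or 3 of 13 with a median of -0.30 under library totals alone, where the all-gene median is -0.59. Acacb was 4.37-fold higher, at 2.13 (1.44 to 3.02), and Acss2 2.91-fold, at 1.54 (1.08 to 2.06), and these were the 2 past 2-fold higher, against 24.3% of all genes. Under library totals alone Acss2, at 0.94, was no longer past 2-fold. Elovl5 at 0.84, Scd1 at 0.58, Elovl1 at 0.43, Scd2 at 0.40 and Fasn at 0.31 were higher with intervals above 0, of which Elovl5 alone stayed on the higher side under library totals alone. Acly, at -1.02 (-1.13 to -0.91), was the 1 gene past 2-fold lower, and Elovl6 at -0.94 and Fads1 at -0.90 lay near that limit. Acly and Fads1, which had been higher in E(-)T(+) than in E(-)T(-), were thus lower in E(+)T(+), while Fads2, the other such gene, was at -0.82, within counting error (-2.46 to 0.50). By contrast, Acss2 and Acacb, which had been lower in E(-)T(+), were higher in E(+)T(+).

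With the resting libraries as end points, E(+)T(+) lay between E(-)T(-) and E(-)T(+) for 14 of 18 cholesterol enzymes, 10 of 13 fatty acid enzymes and 2 of 3 regulators. Of all 15164 genes 47.0% lay between. The counts were 7 of 18, 4 of 13 and 1 of 3 under library totals alone (37.3% of all genes), and 11 of 18, 9 of 13 and 2 of 3 with totals that leave out hemoglobin (45.8%). On the authors' scale the cholesterol enzymes outside were Pmvk and Tm7sf2, which were higher in E(+)T(+) than in both, and Idi1 and Sc5d, which were lower.

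In exercised mice the libraries with and without tumor differed by 2-fold in only 2 of 34 members (5.88%), against 27.8% of all genes. This tumor effect with exercise shares a library with each exercise effect. The members were Pmvk, higher (14.9% of all genes were), and Idi1, lower (13.0%), which went from 94.7 to 36.3 normalized counts, at -1.36 (-2.01 to -0.79). The cholesterol enzymes had a median of 0.35 with 13 of 18 higher, where 49.8% of all genes were, or -0.059 with 7 of 18 higher under library totals alone, where the all-gene median is -0.41. Fdft1 at 0.70 (0.48 to 0.93), Sqle at 0.64 (0.40 to 0.89) and Cyp51 at 0.50 (0.32 to 0.69) were higher. On library totals alone these differences were smaller. In E(+)T(-) and E(+)T(+) Fdft1 then stood at 23.6 and 28.9 CPM, Sqle at 19.2 and 22.6 and Cyp51 at 35.6 and 37.9. The fatty acid enzymes had a median of -0.03, with 6 of 13 higher, or -0.44 with 1 of 13 higher under library totals alone, and none was past 2-fold on either scale. Srebf1 was lower at -0.57 (-0.85 to -0.29) while Srebf2 was higher at 0.55 (0.23 to 0.88). In CPM Srebf1 went from 23.9 to 12.1 and Srebf2 only from 11.8 to 13.0. With 1 library per group, whether the tumor effect differs between resting and exercised mice was not tested.

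Marker genes of several cell types moved with these differences. Beside the counts of markers in the tumor effect without exercise, the all-gene shares are again 20.6% past 2-fold higher and 25.7% lower. The 12 cell division genes summed to 564, 1028, 13487 and 4174 normalized counts, the same order of libraries as the cholesterol sum on this scale. In CPM the orders differed, since the cholesterol sum of E(+)T(+) was then below that of E(+)T(-). All 12 were past 2-fold higher in E(-)T(+) than in E(-)T(-), and 1 of them, Bub1, had no read in E(-)T(-). The 10 alveolar type 2 genes summed to 201927, 234285, 28455 and 162697, with all 10 past 2-fold lower in E(-)T(+), a 7.10-fold lower sum where the fatty acid sum was 1.47-fold lower. The 8 endothelial genes summed to 34761, 35038, 2988 and 23252 and the 10 alveolar macrophage genes to 8552, 9111, 4261 and 15481. The last of these sums is mostly Chil3, without which the other 9 summed to 7256, 7316, 2922 and 5624, and 7 of the 10 were past 2-fold lower in E(-)T(+) than in E(-)T(-) and 1, Marco, higher. Adipocyte markers summed to 3858, 3135, 2369 and 3784, or 2510, 1947, 915 and 1265 without Pnpla2. Of the 9 adipocyte genes past the filter 6 were past 2-fold lower in E(-)T(+) than in E(-)T(-), with a median of -2.21, and 8 were lower with exercise in tumor-free mice, among them Adipoq with 327, 113, 77 and 48 reads. The 8 fibroblast genes summed to 43031, 42065, 38037 and 35559, and 6 keratin and epithelial genes to 6724, 7333, 5278 and 12021. Of the 8 fibroblast genes 6 were higher in E(-)T(+) than in E(-)T(-), 4 of them past 2-fold, with a median of 1.10, while 2 were past 2-fold lower, Tcf21 at -4.77 and Inmt at -4.57. Of the 6 epithelial genes 5 were lower there, 4 past 2-fold, and 1 was higher, Krt20, a keratin of intestinal epithelium, with 0, 46, 2696 and 476 reads. Between the resting libraries 11 of 13 erythroid genes were past 2-fold lower with tumor and 1 higher, and 8 of 9 neutrophil genes were past 2-fold higher. With exercise in tumor-bearing mice 11 of the 12 cell division genes were past 2-fold lower, against 17.7% of all genes, while 9 of 10 type 2, 8 of 8 endothelial and 8 of 10 macrophage genes were past 2-fold higher, against 24.3%. Also past 2-fold higher were all 13 erythroid genes, with a median of 5.1, 8 of 9 neutrophil genes, with a median of 4.2, and 5 of 6 epithelial genes. The macrophage, neutrophil and epithelial lists each had 1 gene past 2-fold lower. In exercised mice 10 of the 12 cell division genes were past 2-fold higher with tumor, against 14.9%, and 1 of the 10 type 2 and 3 of the 8 endothelial genes were past 2-fold lower, against 13.0%. All 9 neutrophil and all 13 erythroid genes were past 2-fold higher in this comparison, with medians of 4.24 and 2.05, and so were 4 of 6 epithelial genes. Of 9 adipocyte genes 4 were past 2-fold lower in it and 1 higher, against 13.0% and 14.9% of all genes. The adipocyte median was -0.87. Every type 2, endothelial, macrophage and fibroblast marker had reads in all 4 libraries. The type 2 gene Lpcat1, however, had only 2 in E(-)T(+), fewer than the 3 taken as the smallest level. The part of these cell types in the differences of the members was not tested.

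**Figure D4:**
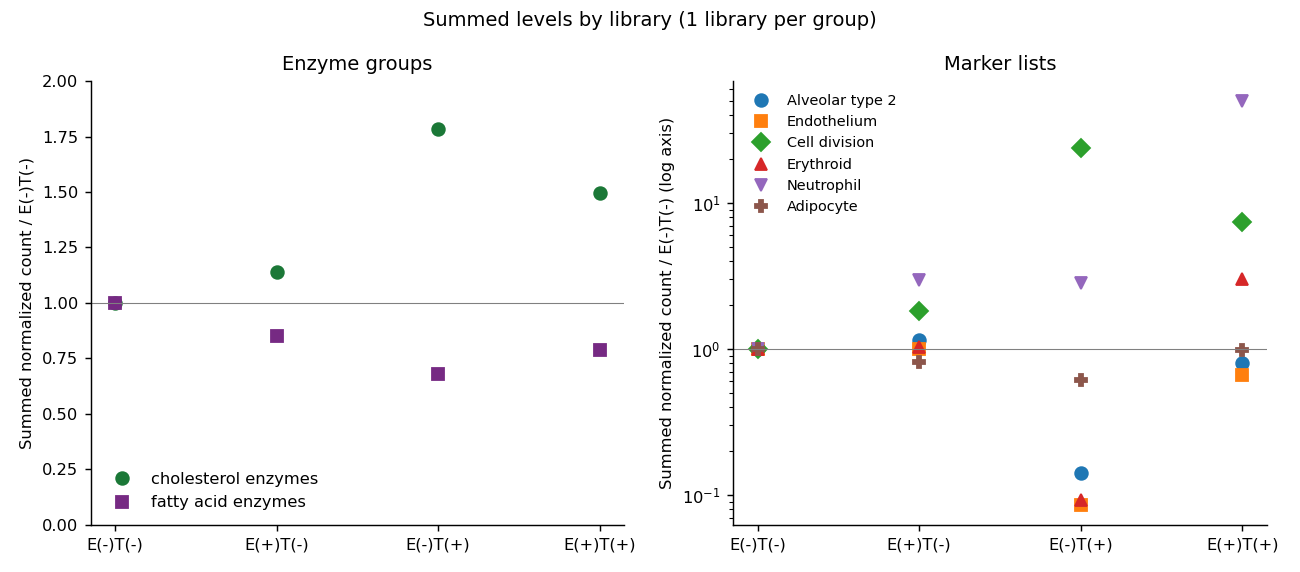
Summed normalized count of the cholesterol and fatty acid enzymes (left, linear axis) and of 6 marker lists (right, log axis), each divided by its sum in E(-)T(-). The cholesterol sum is 1.79 and the fatty acid sum 0.68 times the E(-)T(-) level in E(-)T(+), where the cell division sum is 23.9 times and the endothelial sum 0.09 times that level.

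Genes beside these pathways were counted by list. Of 9 sterol-sensing genes none was past 2-fold in the exercise effect without tumor (9.98% of all genes) or the tumor effect without exercise (46.2%), and 4 were past 2-fold lower with exercise in tumor-bearing mice (17.7%). They were Scap, the SREBP escort, at -1.28, Insig2, a relative of Insig1, at -1.28, and Erlin1 and Erlin2, which help to degrade sterol enzymes, at -1.33 and -1.07. Insig2 alone was past 2-fold lower in the tumor effect with exercise, at -1.34. Of 6 genes of cholesterol export and the nuclear sterol receptors 2 were past 2-fold lower in both tumor effects, against 25.7% of all genes in resting and 13.0% in exercised mice. Nr1h3, the LXR-alpha receptor, had 395, 443, 38 and 115 reads, and Abcg1, a cholesterol exporter that LXR switches on, had 1066, 595, 154 and 167. Both tumor-bearing libraries were low for these genes, and between them Nr1h3 was higher with exercise, at 1.67. Of 9 genes of sterol uptake, transport and storage, Vldlr was past 2-fold higher in E(-)T(+), at 1.25, and Npc1, which exports cholesterol from lysosomes, and Stard3, a lysosomal sterol transporter, were lower, at -1.29 and -1.03, so that 1 of 9 was higher and 2 lower, against 20.6% and 25.7% of all genes. Vldlr, a receptor for triglyceride-rich lipoproteins, was past 2-fold lower in E(+)T(+) than in E(-)T(+), at -2.12, on 1442 and 311 reads. Scarb1, the receptor for high-density lipoprotein, was past 2-fold higher in the tumor effect with exercise, at 1.20, but at 0.79 under library totals alone.

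Among 18 partners of fatty acid synthesis past the filter 2 were past 2-fold higher and 5 lower in E(-)T(+) relative to E(-)T(-), against 20.6% and 25.7% of all genes, so that the lower share was near that of all genes. The furthest was Thrsp, a nuclear protein tied to lipogenesis, with 776, 343, 14 and 12 reads. Unlike Acacb and Acss2, Thrsp was low in both tumor-bearing libraries. Elovl7, Hacd3, Acsl1 and Acsl5 were lower there, at -2.49, -1.67, -1.47 and -1.34, and Hacd2 and Mcat higher by 1.32 and 1.10. In the isoprenoid branches 9 of 10 genes passed the filter, with Pdss1 past 2-fold higher, at 1.08, and Dhdds among those past 2-fold lower, at -1.05. Of 5 genes of NADPH supply G6pdx and Pgd, the dehydrogenases of the pentose phosphate pathway, were past 2-fold higher in the tumor effect with exercise, at 1.18 and 1.14, where 14.9% of all genes were, but at 0.77 and 0.73 under library totals alone. Dhdds and Stard3 also lay short of 2-fold under library totals alone, at -0.94 and -0.92, and Pdss1, at 0.99, with totals that leave out hemoglobin.

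In the exercise effect with tumor 5 of the 18 fatty acid partners were past 2-fold higher and 2 lower, against 24.3% and 17.7% of all genes. Elovl7, Acsl1 and Hacd3, which had been lower in resting mice with tumor, were higher with exercise, at 2.58, 1.62 and 1.23, the last at 0.62 under library totals alone. Hacd2 and Mcat, which had been higher, were lower, at -2.83 and -1.29. The isoprenoid branches had Pdss1, at -1.44, and Acat1, at -1.37, past 2-fold lower. In the tumor effect with exercise Thrsp was at -4.38 and Hacd2 at -1.77. Without tumor 3 of the 18 partners (16.7%) were past 2-fold with exercise, 1 higher and 2 lower, against 9.98% of all genes. Thrsp was 1 of the lower, at -1.06. Mlxipl, Scd3 and Scd4 were past 2-fold in 1 or more comparisons on at most 21 reads per library, and Me3 on at most 27.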

How the data were processed

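Lung RNA was sequenced by the authors from QuantSeq 3′ libraries, 1 per group. Per the methods and the processing notes, reads were aligned with Bowtie2 to mm10, counted per gene with bedtools and normalized between libraries by a quantile method; versions, annotation and use of strand were not given in the sources used here. The deposited values are log2(normalized count + 1). Differences of these log2 values were taken between libraries. A gene was called past the limit at 2-fold or more if its normalized count averaged 4 or more. Whole reads were recovered by inverting a negative binomial quantile adjustment to a common library size (fitted dispersion 0.372), which gave 100% of the deposited values within 0.001. Exact (Clopper-Pearson) 95% intervals of read ratios were scaled by the fitted library sizes and cover counting error only. Nothing was tested across conditions, since each group has 1 library. Every member was named, and genes of related pathways were named only where past 2-fold in at least 1 comparison. Of these, 1 is not reported here. Members and lists were chosen with earlier results of these data known. The alternatives were pseudocounts of 4 and 0.5 in place of 1, other scalings and other filters, and scaling without hemoglobin, the order of libraries and related genes under other scalings, marker sums less 1 gene and the removal of E(-)T(+) material from E(+)T(-) were chosen after seeing the data. Python 3.11.15, numpy 2.4.6, scipy 1.17.1, pandas 2.3.3 and matplotlib 3.10.9 were used, and the scripts were tested on simulated data. Exon overlaps were read from the GENCODE annotation of the same assembly.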

Additional observations from a re-analysis of the deposited data

Results flagged for a closer look

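With 1 library per group, none of the following differences was tested. The exercise effects without and with tumor had opposite signs for the medians of both enzyme groups: the effect with tumor minus the effect without it was -0.72 (log2) for the cholesterol enzymes and 0.54 for the fatty acid enzymes, but -1.25 and 0.020 under library totals alone, where the fatty acid medians had the same sign. With totals that leave out hemoglobin they were -0.72 and 0.55. Under the authors' scaling the exercise effects also had opposite signs, with counting intervals clear of 0 in both comparisons, for 10 single genes. The share of all genes that met this rule was not counted, so the number is not a result about the members as a set. The cholesterol enzymes among the 10 were Dhcr7 (-1.77), Cyp51 (-1.35), Fdps (-1.28), Mvd (-0.90), Acat2 (-0.65) and Msmo1 (-0.63). Each was higher with exercise in healthy mice and lower with exercise in tumor-bearing mice. Of the fatty acid enzymes they were Acss2 (1.85), Scd1 (0.95), Fasn (0.88) and Scd2 (0.59), each in the reverse direction, although under library totals alone Scd1, Fasn and Scd2 were lower with exercise in both and their differences were 0.43, 0.35 and 0.073. Library totals alone lowered each single-gene value given here by about the same amount, to -1.87 for Cyp51 and 1.33 for Acss2.

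The tumor effects in resting and exercised mice had opposite signs, again with counting intervals clear of 0 in both comparisons, for 3 genes. How many of all genes met this rule was likewise not counted. Tumor minus no tumor was positive in resting and negative in exercised mice for Srebf1 and Dhcr7, whose effects differed by -1.37 and -1.77, and negative then positive for Fasn, with a difference of 0.88, although under library totals alone Fasn was lower with tumor in both, with a difference of 0.35.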

How the results depend on the processing

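Of 154 recalculated summary values 145 stayed within their counting error or within 1.5 times, 7 moved and 2 changed sign, and of 1012 recalculated values of single members 930 stayed within counting error and none past 2-fold changed sign. These totals include values that could not move. They are those without a filter, 136 of the 1012, since all members pass it, and the median differences under a rescaling. The 128 single-member values under the filter of 50 normalized counts could not move either, since this filter only drops genes. Smaller differences could change sign under library totals alone, as for Fasn, Scd1, Scd2 and Elovl1 in the exercise effect with tumor. Of the single-member values, totals that leave out hemoglobin moved 14 and left 122 within counting error. Library totals alone moved 68 and left 68, and accounted for 7 of the 9 summary values that moved or changed sign. In the exercise effect with tumor they gave medians of -1.12 for the cholesterol and -0.30 for the fatty acid enzymes, with 1 member past 2-fold higher and 18 lower, as Pmvk and Acss2 lost their calls. Scd1 lost its call in the tumor effect without exercise. Relative to the all-gene median of -0.59 these medians are -0.53 and 0.29. In the tumor effect with exercise the medians became -0.059 and -0.44, or 0.35 and -0.03 relative to the all-gene median of -0.41. The fatty acid median in the tumor effect without exercise became -0.60. In the exercise effect without tumor 1 member, in place of 2 and without Fads2, was past 2-fold higher both with a pseudocount of 4 and when genes had to average 50 normalized counts. The cause of these moves was not tested. A rescaling shifts all genes of a comparison alike, so the difference between the cholesterol and fatty acid medians cannot move under it. Between the resting libraries that difference was 1.67 when genes had to average 50 normalized counts and 1.56 with the regulators added to the groups, against 1.65. No paired analysis was possible because each group has 1 library, and for the same reason no replicate could be left out. Depth limits Fads2 and Tm7sf2, which had at most 19 reads in any library.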
